A study of Bos taurus with 12 samples.

Results

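ENSBTAG00000054379 and ENSBTAG00000000188 are 2 of 27607 genes in a read count table of single cattle (Bos taurus) blastocysts, and both had reads in every wild-type embryo and almost none in embryos that lack exon 1 of OCT4. They were chosen by that very difference, so their levels by genotype are given as a description with no test. Apart from a screen for outlying values, which also took in the edited embryos, only their variation among wild-type embryos, which the choice did not use, was tested. The names are Ensembl gene identifiers, and the table of gene symbols used here matched 0 of the 27607, so neither gene is given a name, a position or a function.

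The blastocyst is the embryo at the stage when an outer trophectoderm, which goes on to form placenta, surrounds a fluid-filled cavity and an inner cell mass, which gives rise to the epiblast and the hypoblast. OCT4 is a POU-family transcription factor encoded by POU5F1 and is known for its part in keeping inner cell mass cells pluripotent. Its first exon holds the start of the coding sequence.

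The 12 embryos were produced in vitro and collected at day 7.5. The labels give 5 the genotype lacking exon 1 of OCT4 (edited embryos 1 to 5) and 7 the genotype wild type (wild-type embryos 1 to 7), and the series describes editing as electroporation of CRISPR-Cas reagents in 2 rounds that target DNA and RNA. They name no breed, sire, sex, date of culture or electroporation control for either group, and they say nothing of how complete the deletion was in each embryo. Each embryo is a separate sample in the labels, so the spread between embryos holds both biological and amplification differences. Because part of a whole embryo's lysate was sequenced, fewer cells of a type and less RNA per cell cannot be told apart. Without gene symbols the labelled tissue and the OCT4 genotype could not be checked against marker genes.

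Wild-type libraries held 2762133 to 4781663 reads assigned to genes, and edited libraries 168974 to 3202922. Edited embryos 1 and 3 (3202922 and 3145326 reads) were as deep as wild type, edited embryos 4 and 5 were shallower (1478796 and 778114 reads), and edited embryo 2 stood apart with 168974. At that smallest total edited embryo 2 had 6084 detected genes, and the other 4 edited embryos would have 9927 to 11568. Levels are given as CPM, counts scaled to library size with TMM factors. A gene with 0 reads may still have been present at up to the level of 3 reads, which is called its floor here, and amplified reads are not independent molecules, so floors and intervals cover counting error only.

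ENSBTAG00000054379 was read in all 7 wild-type embryos and in 1 of 5 edited embryos. Wild-type embryos 1 to 7 had 8, 9, 17, 24, 34, 23 and 14 reads, and edited embryos 1 to 5 had 1, 0, 0, 0 and 0. As levels, the wild-type embryos lay at 2.39, 3.08, 4.37, 6.66, 6.60, 6.37 and 3.46 CPM, and the single read in edited embryo 1 equalled 0.316 CPM. Wild-type embryos 4, 5 and 6 were the highest and wild-type embryo 1 the lowest, and no edited embryo reached it. The wild-type mean was 4.70 ± 1.82 CPM (SD, n = 7), that of the edited embryos was 0.0632 ± 0.141 CPM (SD, n = 5), and the lowest wild-type value was 7.55 times the highest edited value.

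ENSBTAG00000000188 was read in all 7 wild-type embryos and in 2 of 5 edited embryos. Its reads were 38, 26, 22, 16, 71, 37 and 26 in wild-type embryos 1 to 7, and 4, 0, 1, 0 and 0 in edited embryos 1 to 5. The wild-type levels were 11.3, 8.91, 5.65, 4.44, 13.8, 10.2 and 6.43 CPM, and edited embryos 1 and 3 lay at 1.26 and 0.342 CPM. Here wild-type embryo 5 was the highest and wild-type embryo 4, which was the highest for ENSBTAG00000054379, was the lowest. The wild-type mean of 8.69 ± 3.36 CPM (SD, n = 7) compared with 0.321 ± 0.547 CPM for the edited group (SD, n = 5), and the lowest wild-type value was 3.51 times the highest edited value.

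**Figure D1:**
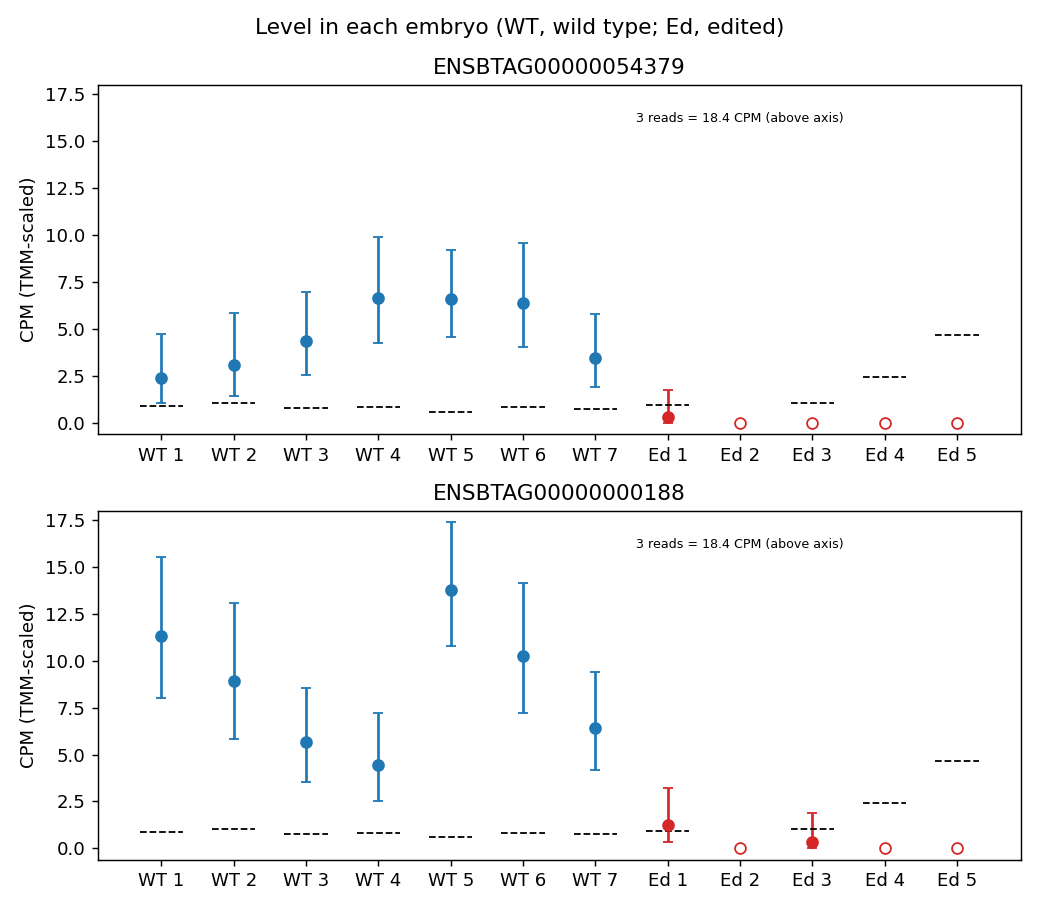
Level of each transcript in every embryo, in TMM-scaled CPM, with exact 95% Poisson intervals of the reads as bars; open circles mark 0 reads and dashed lines mark the level of 3 reads in that library. All 7 wild-type embryos lie above all 5 edited ones in both panels, but the dashed lines of edited embryos 4 and 5 reach the lower wild-type values of ENSBTAG00000054379, and in edited embryo 2 that line is at 18.4 CPM.

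In both genes every edited embryo was below every wild-type embryo. Such separation was present in 2.67% of the 11926 genes that passed a filter on low counts (edgeR's filterByExpr), and both genes passed that filter. Under scaling by library size alone the share was 5.39%. Since the genes were chosen for this property, nothing is read from their place in that share. Summed over embryos, 1 read of ENSBTAG00000054379 was found in edited libraries where 38.2 would stand at the wild-type mean, and 5 reads of ENSBTAG00000000188 where 70.6 would stand. As reads over depth, the edited level of ENSBTAG00000054379 was 2.53% of wild type (exact 95% interval from the split of reads 0.0637 to 14.4%), and that of ENSBTAG00000000188 was 6.93% (2.23 to 16.4%). As means of CPM over embryos, which give shallow libraries equal weight, they were 1.34% and 3.70%. Without edited embryo 2 the ratios of reads over depth were 2.59% and 7.07%. The intervals cover counting error in pooled reads and not the spread between embryos, on a contrast that was used to choose the genes.

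Edited embryo 1 held the only read of ENSBTAG00000054379 and 4 of the 5 reads of ENSBTAG00000000188 found in edited libraries. With it left out, ENSBTAG00000054379 had 0 reads in the other 4 edited embryos, at least 8.03-fold lower than wild type with the floor of 3 reads set over that group, and at most 15.5% of wild type (6.44-fold lower) by the upper bound of the exact 95% interval. ENSBTAG00000000188 then had 1 read, 2.27% of wild type (exact 95% interval 0.0572 to 12.8%). Edited embryo 3, almost as deep, had 0 and 1 reads. For ENSBTAG00000000188 the exact 95% Poisson intervals of edited embryo 1 (0.344 to 3.24 CPM) and edited embryo 3 (0.00865 to 1.90 CPM) overlapped. A difference between these embryos was not tested.

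How much a count of 0 shows differed greatly between edited embryos. From the deepest to the shallowest edited library (embryos 1, 3, 4, 5 and 2) the floor was 0.948, 1.02, 2.45, 4.65 and 18.4 CPM. In the 7 wild-type embryos it was 0.583 to 1.03 CPM.

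For ENSBTAG00000054379 the wild-type mean would give 14.9, 13.8, 5.77, 3.04 and 0.767 reads at the depths of edited embryos 1, 3, 4, 5 and 2. The level of the lowest wild-type embryo would still give 7.55 and 6.98 reads in edited embryos 1 and 3, but 2.93 in edited embryo 4 and 1.54 in edited embryo 5. With the floor as the bound, the 0 reads of edited embryo 3 allow 21.8% of the wild-type mean, and those of edited embryos 4 and 5 allow 52.0% and 98.8%. The exact 95% upper limits are higher, at 26.8%, 63.9% and 121.5%, the last above the wild-type mean. In edited embryo 2 the floor is above the wild-type mean, at 391.0% of it. The floor thus lies under the lowest wild-type value of 2.39 CPM in edited embryos 1 and 3 and above it in edited embryos 2, 4 and 5. Wild-type counts carry error too. The exact 95% Poisson interval of edited embryo 1 was 0.008 to 1.76 CPM. It overlapped those of wild-type embryos 1 (1.03 to 4.70 CPM) and 2 (1.41 to 5.85 CPM). That of edited embryo 3 (0 to 1.26 CPM) overlapped that of wild-type embryo 1. Overlap of separate intervals is no test of a pair, and no single pair of embryos was tested.

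For ENSBTAG00000000188 the floor lay under the lowest wild-type value in edited embryo 4 as well. The wild-type mean would give 27.5, 25.4, 10.7, 5.60 and 1.42 reads in edited embryos 1, 3, 4, 5 and 2, and the lowest wild-type level 14.1, 13.0, 5.45, 2.86 and 0.724. With the floor as the bound, the 0 reads of edited embryo 4 allow 28.2% of the wild-type mean (exact 95% upper limit 34.6%), below the lowest wild-type embryo. Those of edited embryo 5 allow 53.5%, or 4.65 CPM, just above the lowest wild-type value of 4.44 CPM, and those of edited embryo 2 allow 211.8%. The upper 95% limits in edited embryos 1 and 3, 3.24 and 1.90 CPM, were both under every wild-type value. The interval of wild-type embryo 4 (2.54 to 7.21 CPM) overlapped those of edited embryos 1, 4 (0 to 3.01 CPM), 5 (0 to 5.72 CPM) and 2 (0 to 22.6 CPM). Only the interval of edited embryo 3 overlapped that of no wild-type embryo.

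**Figure D2:**
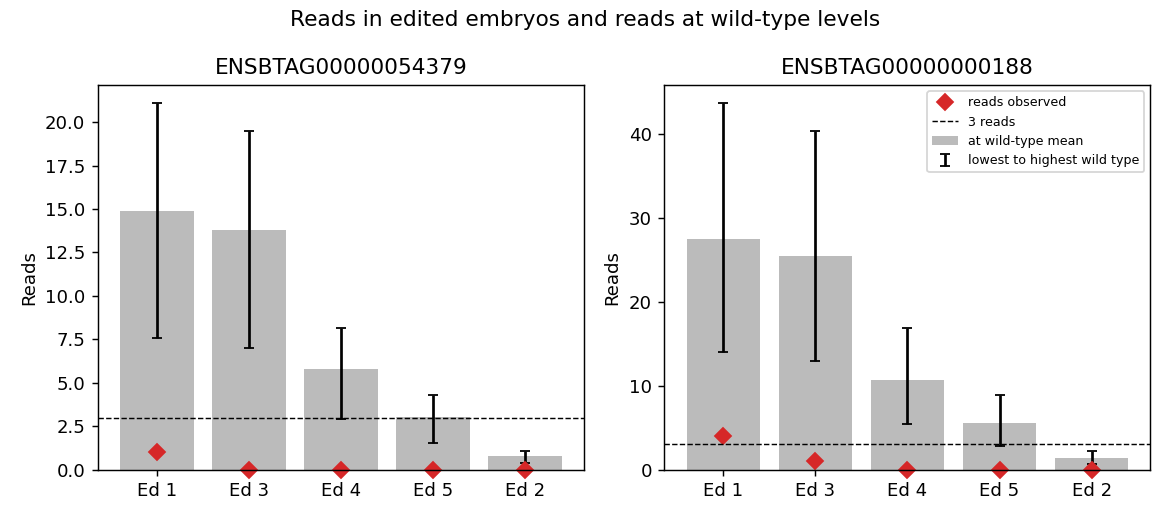
Reads of each transcript observed in the 5 edited embryos (diamonds), in order of depth, beside the reads that the wild-type mean would give at that depth (bars, with whiskers from the lowest to the highest wild-type level) and the line of 3 reads. Observed reads lie below the whiskers in all 5 embryos, but in edited embryo 2 even the highest wild-type level gives 1.09 and 2.25 reads.

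Genes of like abundance were often at 0 in the same edited libraries. Of 1502 other genes with reads in all 7 wild-type embryos and a wild-type mean within 1.5-fold of ENSBTAG00000054379, 1.86% had 0 reads in edited embryo 1, while 3.33% did in edited embryo 3. The same shares were 34.1%, 26.2% and 83.8% for edited embryos 4, 5 and 2. Around ENSBTAG00000000188 (1834 genes) they were 0.382%, 0.872%, 19.2%, 16.1% and 79.7% in edited embryos 1, 3, 4, 5 and 2. Edited embryo 4 had more genes at 0 than edited embryo 5 although its library was deeper. A 0 was thus common among genes of this abundance in edited embryos 2, 4 and 5 and rare in edited embryos 1 and 3. Having 0 reads in edited embryos 2, 4 and 5 together, as both members did, was less common. It was found in 10.9% of the 1502 genes and 4.96% of the 1834. These shares describe detection and are no test of the members, and the part of depth in the members' values in the shallow libraries was not tested.

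**Figure D3:**
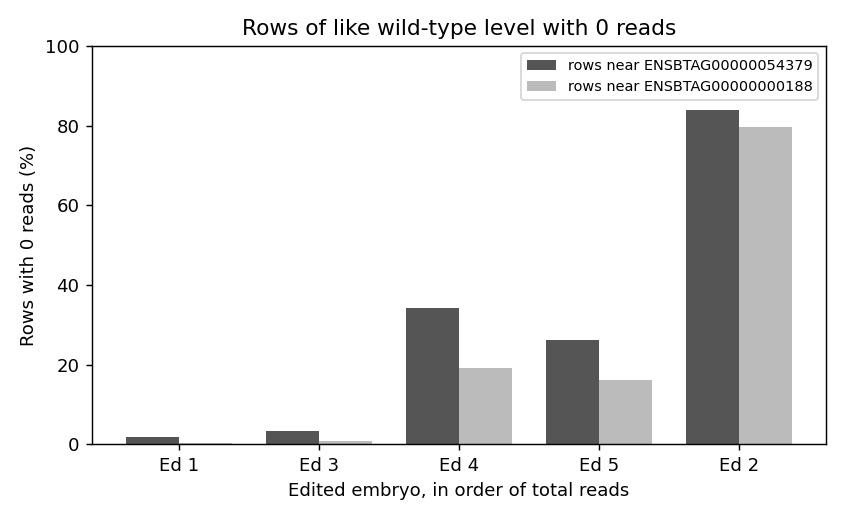
Share of genes with 0 reads in each edited embryo, in order of total reads, among genes with reads in all 7 wild-type embryos whose wild-type mean lay within 1.5-fold of ENSBTAG00000054379 (1502 genes, dark) or ENSBTAG00000000188 (1834 genes, light). The bars are at or below 3.33% in edited embryos 1 and 3, between 16.1% and 34.1% in edited embryos 4 and 5, and 79.7% and 83.8% in edited embryo 2.

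The members are not alone in this pattern. Of 13317 genes with reads in all 7 wild-type embryos, 44 had 0 reads in all 5 edited embryos and 207 in exactly 4 of them. An edited to wild-type ratio of mean CPM at or under that of ENSBTAG00000000188 (3.70%) was found in 60 of the 13317, both members included, and 45 of these had a wild-type mean of 1 CPM or more. In 57 of the 60 the lowest wild-type embryo had fewer than 8 reads, the lowest count of either member. Just outside, ENSBTAG00000053433 had a ratio of 3.70% as well, from a wild-type mean of 16.5 CPM and 0.610 CPM in edited embryos. Its wild-type values ran from 5.14 to 40.4 CPM, a wider spread than in either member. Without edited embryo 1 the count of 60 became 160 and without edited embryo 3 it became 156. The limit was reset each time to the ratio of the higher member. That ratio was 0.985% without edited embryo 1 and 3.61% without edited embryo 3.

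ENSBTAG00000016499 had a ratio of 3.10%, between those of the members, with 16 to 37 reads in each wild-type embryo and 3, 0, 0, 0 and 0 in edited embryos 1 to 5. Its wild-type level was 6.12 ± 2.13 CPM (SD, n = 7) and its edited level 0.190 ± 0.424 CPM (SD, n = 5). Ranked by Pearson's r of log2 CPM over the 12 embryos, it was also the gene most like ENSBTAG00000054379 among the 11925 others that passed the filter (r = 0.95). The gene most like ENSBTAG00000000188 was ENSBTAG00000033248 (r = 0.96), which averaged 11.8 ± 4.91 CPM over wild-type embryos (SD, n = 7) and 1.02 ± 1.92 CPM over edited ones (SD, n = 5). Of its 16 reads in edited libraries, 14 were in embryo 1 and 2 in embryo 3.

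ENSBTAG00000013544 and ENSBTAG00000000133 were among the 5 genes most like both members. Edited embryos 1 to 5 had 6, 0, 2, 0 and 0 reads of ENSBTAG00000013544, and each wild-type embryo 24 to 46. For ENSBTAG00000000133 these were 3, 0, 1, 0 and 0 reads, and 7 to 38. In both, as in ENSBTAG00000000188, the reads left in edited libraries were in embryos 1 and 3, the deepest, with the greater number in embryo 1. These genes were picked for their likeness to the members. The lists do not share that order: ENSBTAG00000004066, at rank 2 for ENSBTAG00000000188, had 1 read in edited embryo 1 and 4 in edited embryo 3. ENSBTAG00000018386, at rank 4 for ENSBTAG00000000188, had 47 and 50. The members ranked 6th and 9th in each other's list (r = 0.93). This r is set largely by the difference between genotypes and not by the size of a change, as ENSBTAG00000014766, at rank 3 for ENSBTAG00000054379 with r = 0.93, averaged 670.1 ± 65.3 CPM over the 7 wild-type and 442.1 ± 50.4 CPM over the 5 edited embryos (SD), 66.0% of wild type. It is a description over embryos that share the 2 groups, and without edited embryo 2 the members ranked 11th and 26th in each other's list (r = 0.91). Both first places changed as well: ENSBTAG00000003712 was then most like ENSBTAG00000054379, with ENSBTAG00000016499 at rank 3, and ENSBTAG00000052466 most like ENSBTAG00000000188, with ENSBTAG00000033248 at rank 4.

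Within wild type, where the genotype does not enter, the 2 transcripts showed no detectable covariation. Over the 7 wild-type embryos Pearson's r of their CPM was 0.0355 (two-sided exact permutation test over all 5040 pairings, p = 0.941, Benjamini-Hochberg adjusted p = 0.941 over 5 relations). Spearman's rho was -0.25 (exact p = 0.595, adjusted p = 0.744). Leaving out wild-type embryos 4 and 5, the 2 farthest from the median of ENSBTAG00000054379, gave r = -0.0499 (exact p = 0.933). The sign was not stable, since leaving out single embryos gave r from -0.41 to 0.41, the lower value without wild-type embryo 5. With 7 embryos such a range does not show that the 2 vary independently.

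**Figure D4:**
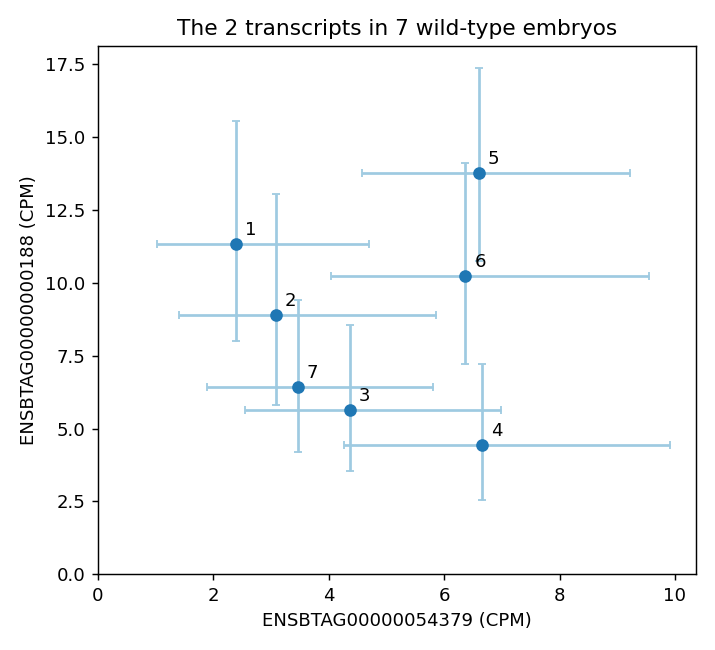
Level of ENSBTAG00000000188 against that of ENSBTAG00000054379 in the 7 wild-type embryos (numbered), in CPM, with exact 95% Poisson intervals. Wild-type embryo 5 is high in both, wild-type embryo 4 is highest in ENSBTAG00000054379 and lowest in ENSBTAG00000000188, and wild-type embryo 1 is lowest in ENSBTAG00000054379 and second in ENSBTAG00000000188.

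The balance of the 2 transcripts differed between some wild-type embryos by more than counting error. Of the reads of both genes together, ENSBTAG00000054379 took 35.3% over all wild-type embryos (129 of 365 reads, exact Clopper-Pearson 95% interval 30.4 to 40.5%). Its share was 17.4% (7.82 to 31.4%) in wild-type embryo 1, the lowest, and 60.0% (43.3 to 75.1%) in wild-type embryo 4, the highest. The intervals of 3 of 21 pairs of embryos did not overlap, all of them pairs of wild-type embryo 4, with embryos 1, 2 and 5. This share compares the same 2 genes between embryos and says nothing of which is the more abundant transcript, because reads were not set against transcript length.

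**Figure D5:**
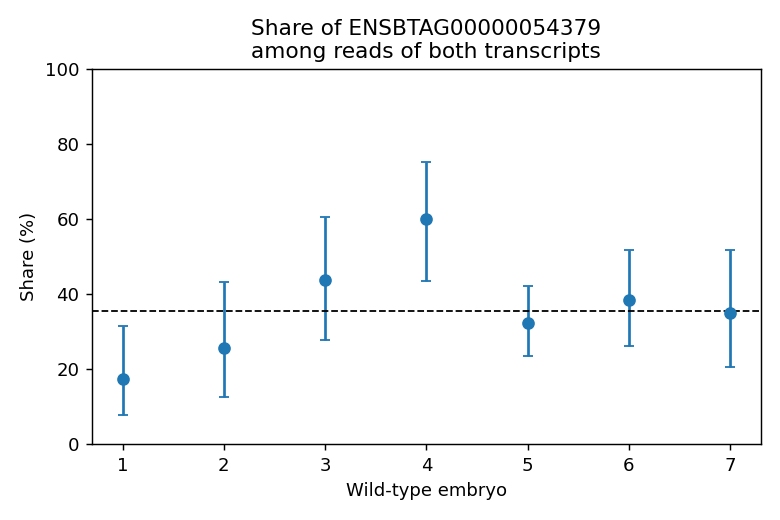
Share of ENSBTAG00000054379 among the reads of both transcripts in each wild-type embryo, in percent, with exact 95% Clopper-Pearson intervals; the dashed line is the share over all 7 embryos, 35.3%. Wild-type embryo 4 lies above the line with its whole interval. Wild-type embryo 1 has the lowest share and lies below the line with its whole interval.

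Both transcripts varied between wild-type embryos by more than reads alone would give. The coefficient of variation was 38.7% for each, where counting error alone would give 24.0% for ENSBTAG00000054379 and 17.6% for ENSBTAG00000000188. Ordered by level, no pair of neighbouring wild-type embryos differed beyond its counting intervals in either gene. Over all 21 pairs the intervals of ENSBTAG00000054379 overlapped in every pair, and those of ENSBTAG00000000188 were apart in 5 pairs. The biological coefficient of variation that edgeR fitted to wild-type embryos alone was 0.430 and 0.409, against a trend over 13317 genes at the same levels of 0.520 and 0.455. That fit draws each gene's value towards the trend, and both values lie above the coefficient of variation of 38.7%. Both genes were estimated as somewhat less variable than the trend, but these values do not show by how much.

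Neither transcript was detectably related to library depth within wild type. For ENSBTAG00000054379 and total reads r was 0.524 (exact permutation p = 0.244, adjusted p = 0.417; rho 0.464, exact p = 0.302, adjusted p = 0.589), and without wild-type embryos 2 and 5 it was 0.00037. For ENSBTAG00000000188 and total reads r was 0.376 (exact permutation p = 0.433, adjusted p = 0.541; rho 0.143, exact p = 0.783, adjusted p = 0.783), and without the same embryos -0.495. With the number of genes detected at equal depth, ENSBTAG00000054379 had r = 0.475 (exact p = 0.25, adjusted p = 0.417; rho 0.429, exact p = 0.354, adjusted p = 0.589), and 0.84 without wild-type embryos 4 and 5. ENSBTAG00000000188 had r = -0.651 with that number (exact p = 0.115, adjusted p = 0.417; rho -0.75, exact p = 0.0663, adjusted p = 0.331), and -0.0965 without wild-type embryos 4 and 5.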

How the data were processed

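RNA of 12 single blastocysts was sequenced. Per the labels' protocols, lysate was divided between a pair of tubes, RNA was extracted with TRIzol, and cDNA was amplified (mcSCRB-seq, modified) before tagmentation. The authors deposited unnormalised counts of reads for each gene. The submitters' processing notes name HISAT2 2.2.1, SAMtools 1.17, featureCounts 2.0.1 and the build ARS-UCD1.2 (bosTau9). Not given in the sources used here are the annotation release, the strand setting and whether molecular identifiers were collapsed, so counts are uncertain for genes that overlap, lie antisense or have near-identical copies.

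Columns were matched to samples by the description label and groups taken from the genotype label. The members and lists were chosen with earlier results of these data known. CPM were scaled by TMM in edgeR 4.0.16 (R 4.3.3), with factors from the 11926 genes passing filterByExpr. log2 CPM used a prior count of 2. Genes detected at the smallest total, 168974 reads, are the number expected from random thinning. Correlations used exact permutation in scipy 1.17.1 (Python 3.11.15). The edgeR quasi-likelihood test over all genes, checked on simulated counts, gave only the number of genes called, with no p for the members. The rule for named genes took the members, the 5 most like each over 12 embryos, all genes with ratios as low and the 3 next above. As they carry no symbols, only the first of each list (also without edited embryo 2), those in both likeness lists and a few others are printed. The others are ENSBTAG00000014766, ENSBTAG00000004066 and ENSBTAG00000018386, picked after their values were seen. Marker lists and neighbouring genes were not run, as 0 identifiers matched the symbols of RefSeq's ARS-UCD2.0 table. DESeq2 1.42.0 was an alternative.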

Additional observations from a re-analysis of the deposited data

Results flagged for a closer look

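Edited embryo 1 had the highest edited value of both transcripts, 0.316 CPM for ENSBTAG00000054379 from 1 read and 1.26 CPM for ENSBTAG00000000188 from 4 reads. Its gap to the next edited embryo was all of the group's range for the former and 0.73 of it for the latter, against a critical value of 0.71. For ENSBTAG00000054379 all other edited values were 0, so any read would have given all of the range. The other values were 0, or 1 read in edited embryo 3, and the floors of 2.45 to 18.4 CPM in edited embryos 4, 5 and 2 lie above both of these levels, so edited embryo 1 is not shown to differ from the others. These were 2 of 8 groups of values examined. The critical value and its rate of about 1 in 20 by chance do not hold for values that are mostly 0.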

How the results depend on the processing

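Over the 12 fits that omit an embryo, the edited to wild-type ratio of ENSBTAG00000054379 was 0 to 1.67%. That of ENSBTAG00000000188 was 0.985 to 4.59%, and both were lowest without edited embryo 1. As reads over depth the ratios were 2.53% and 6.93%. Every alternative stayed within 1 SD of the edited embryos' values. That SD is larger than the ratio itself in both genes, so even a fall to 0 would stay within it, and stability is not shown. The wild-type correlation of the 2 transcripts never passed the threshold. It was negative on log2 CPM (-0.11, exact permutation p = 0.815), without wild-type embryos 4 and 5 (-0.0499), and without wild-type embryo 5, 6 or 7, and ranged from -0.41 to 0.41 when single embryos were left out. The 60 genes with ratios as low as the members became 7 among genes passing the filter, whether or not every wild-type embryo had reads. They became 60 to 160 when single embryos were left out, with the limit reset to the higher member's ratio each time. Genes lower without overlap were 5.39% under scaling by library size alone. The edgeR quasi-likelihood test over all 11926 genes called 3 higher and 0 lower at an adjusted p under 0.05, with 1801 at an unadjusted p under 0.05. No filter gave 40 calls, DESeq2 749, and leaving out single embryos 1 to 652, the highest without edited embryo 2. The causes were not tested. Of the 5 genes most like each member, 3 and 2 were shared with the lists made without edited embryo 2. Chosen after seeing the data were the minimum of 1 CPM, reads over depth without edited embryo 1 or 2, and the overlap share without edited embryo 2 (3.47%). No paired analysis was possible because the labels number no replicates, the embryo numbers used here are only names, and nothing ties an edited to a wild-type embryo. The level of 3 reads lies above the lowest wild-type value of both transcripts in edited embryos 2 and 5, and of ENSBTAG00000054379 in edited embryo 4.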
